A study of Macaca mulatta with 20 samples.

Results

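The genes described are those of the nuclear-encoded subunits of the mitochondrial respiratory chain. They were chosen by symbol alone, as the genes whose only annotated symbol was NDUFA, NDUFB, NDUFC, NDUFS or NDUFV with a number, SDHA to SDHD, any symbol starting with UQCR, or any starting with COX4, COX5, COX6, COX7 or COX8. The rule found 63 genes of 21951 with a single symbol, of which 42 of 14132 were read on rhesus arrays, 59 of 19775 on human arrays and 38 on both. By complex, 33 genes belong to complex I, 4 to complex II, 7 to complex III and 19 to complex IV. Each gene was read from its brightest probe set, the one with the highest mean over the 10 arrays of a type.

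Rhesus macaque (Macaca mulatta) total RNA came from 5 sources, which were cerebral cortex, immortalized fibroblasts (connective tissue cells kept dividing in culture), pancreas, testis and thymus. Aliquots of the same RNA were labelled with biotin from 5 ug and hybridised to 2 rhesus and 2 human Affymetrix arrays per source, which gave 20 arrays. In the sample labels these arrays are technical replicates of a source, so p-values measured only the spread between arrays and compared 5 RNA preparations. The number, age and sex of the animals are not stated in the labels or methods, and no group was treated. Human arrays carry probes designed on human transcripts, to which rhesus RNA can be mismatched.

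The respiratory chain passes electrons from food to oxygen across the inner mitochondrial membrane and pumps protons as it does so, and ATP synthase uses the proton gradient to make ATP. Complex I takes electrons from NADH and complex II from succinate, complex III passes them to cytochrome c, and complex IV, cytochrome c oxidase, hands them to oxygen. Nearly all subunits are used by every cell with mitochondria, and neurons are known for a heavy demand on the chain. Several complex IV subunits exist as alternative isoforms whose genes are known from heart and skeletal muscle, lung or testis.

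Values are log2 expression levels, so that a difference of 1 is a doubling. Levels can be compared between sources for 1 probe set, but not between probe sets. In limma, fitted across an array type's probe sets, every source had its mean compared with that of the other 4, and a gene was called when the Benjamini-Hochberg adjusted p was below 0.05 and the log2 difference was 1 or more in either direction. The floor of the arrays, taken as the highest mean among bacterial controls that were not spiked in, was 3.12 on both types. The labelled tissues showed their own markers. Cortex had 6 of 6 and 7 of 7 neural and glial markers called higher on the rhesus and human arrays, fibroblasts 5 of 6 and 6 of 8 connective tissue markers, pancreas 6 of 6 and 7 of 7 acinar markers, testis 6 of 6 and 5 of 7 somatic testis markers, and thymus 4 of 4 and 7 of 8 thymocyte markers. The pancreas arrays stood apart, with a 90th percentile of all levels of 8.01 and 8.06 on the rhesus type against 8.63 to 8.74 on the arrays of the other sources, and of 6.60 and 6.62 on the human type against 7.32 to 7.50. The 3′ probe set of actin exceeded the 5′ probe set by 4.58 in pancreas against 2.07 to 2.66 elsewhere on rhesus arrays, and by 2.40 against 2.03 to 2.47 on human arrays. For GAPDH the same measure was 2.77 in pancreas against 1.30 to 1.97 on rhesus and 1.31 against 0.12 to 0.50 on human arrays.

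Few subunit genes differed widely between sources. Their highest and lowest source means lay 1.35 apart in the median gene on the rhesus arrays, against 1.94 over all genes, and a range over 3 was reached by 2 of 42 subunit genes (4.76%) against 29.8% of all genes. The human median range was 1.11 against 0.84 over all genes, of which many lay at the floor, and 2 of 59 (3.39%) exceeded 3 against 16.4% of all genes. Among genes above the floor in every source, 39 and 52 of them subunit genes, the median ranges were 1.39 against 2.24 on rhesus and 1.19 against 1.61 on human arrays. The rhesus genes under the floor were COX4I2 and COX6A2, both isoform genes of complex IV, and NDUFB10, an accessory subunit of complex I. On the human arrays, which read the same RNA, NDUFB10 was above the floor in every source, with means of 5.92 to 7.97. Its rhesus value thus does not show that the gene was off.

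Cortex and testis marked the ends of that range. The highest mean was in cortex for 25 of 42 subunit genes on rhesus and 27 of 59 on human arrays, against 18.4% and 15.4% of all genes. The lowest was in testis for 22 of 42 and 33 of 59, against 30.8% and 41.7% of all genes. Among genes above the floor in every source, testis was lowest for 51.3% and 55.8% of subunit genes, against 13.0% and 17.8% of genes. In that set cortex was highest for 61.5% and 51.9% of subunit genes, against 18.2% and 17.6% of genes. In whole tissue, fewer cells of a type and less RNA per cell cannot be told apart.

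Subunit genes were higher in cortex than in the other sources by a median of 0.69 on rhesus and 0.39 on human arrays, while the median over all genes was -0.12 and -0.04. The difference was above 0 for 37 of 42 and 45 of 59 genes. With the minimum of 1 log2 unit, 9 of 42 were called higher and 0 lower on the rhesus arrays, where 16.6% of all genes were called higher and 21.1% lower. Human arrays called 10 of 59 higher and 0 lower, against 11.0% and 9.99% of all genes. Without the minimum, 31 of 42 and 33 of 59 passed as higher, against 25.8% and 16.5% of all genes. Most shifts in cortex were thus smaller than a doubling, and the genes called higher with the minimum made up 21.4% of the subunit genes on rhesus and 16.9% on human arrays.

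In testis the subunit genes had a median difference of -0.50 on rhesus and -0.44 on human arrays, against -0.08 and -0.06 over all genes. The difference was below 0 for 37 of 42 and 54 of 59 genes. On the rhesus arrays 0 of 42 were called higher and 8 lower, against 16.1% and 11.2% of all genes. The human arrays called 1 of 59, the testis isoform COX8C, higher and 9 lower, against 8.67% and 5.63% of all genes. Without the minimum, 33 of 42 and 41 of 59 were lower, against 37.7% and 28.1% of all genes. Markers of male germ cells were called higher in testis for 4 of 10 genes on rhesus and 4 of 16 on human arrays. Their summed level, here and below the log2 of the sum of the unlogged levels, is set mostly by the brightest probe sets of a list. It was 8.81 in testis against 6.28 to 6.80 in the other sources on rhesus and 9.09 against 6.72 to 6.93 on human arrays. The spermatid genes PRM1, PRM2 and TNP2 were at 2.43, 2.35 and 2.89 in testis on the human arrays, under the floor. What part the germ cells had in the low subunit levels was not tested.

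Immortalized fibroblasts and pancreas showed smaller shifts. In fibroblasts the median difference of subunit genes was 0.03 on rhesus and 0.23 on human arrays, against 0.03 and 0.00 over all genes. There 2 of 42 and 3 of 59 were called higher and none lower, where 18.0% and 11.3% of all genes were higher and 14.9% and 8.10% lower. Without the minimum, 20 of 42 and 26 of 59 were higher in fibroblasts, against 33.8% and 19.7% of all genes. In pancreas the median was -0.19 on rhesus and -0.32 on human arrays, against -0.10 and 0.03 over all genes. Among genes above the floor in every source, the pancreas median of subunit genes was -0.27 against -0.42 on rhesus arrays. On human arrays it was -0.35 against -0.22, so the order of subunit genes and other genes differed between the types. On the rhesus arrays 1 of 42 was called higher and 3 lower, against 9.81% and 23.8% of all genes, and on the human arrays 2 of 59 were higher and 2 lower, against 5.01% and 15.7%. Without the minimum, 23 of 42 and 32 of 59 were lower in pancreas, against 43.7% and 29.2% of all genes. The pancreas direction depended on scaling: after quantile normalization, which gives every array the same distribution, the median of the subunit genes in pancreas was 0.27 on rhesus and 0.29 on human arrays. Then 4 and 3 genes were called higher in pancreas and 1 and 0 lower. Quantile normalization left cortex at 0.58 and 0.20 and testis at -0.58 and -0.55, and put fibroblasts at -0.06 and -0.01, with 1 called higher and 1 lower on rhesus arrays and 0 in either direction on human arrays. Subtraction of the spiked controls instead called 0 and 0 genes higher in pancreas and 30 and 50 lower. That step also put the median of all genes in pancreas at -1.20 on rhesus and -1.08 on human arrays.

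Thymus also lay close to the mean of the rest. Its median difference was -0.04 on rhesus and 0.10 on human arrays, against -0.06 and -0.04 over all genes. On the rhesus arrays 1 of 42 was called higher and 2 lower, against 16.7% and 18.1% of all genes. Quantile normalization gave 1 higher and 3 lower, and subtraction of the array median 2 and 2. On the human arrays limma called 0 of 59 in either direction, against 9.65% higher and 10.1% lower among all genes, while 28 of 59 had an adjusted p below 0.05 with no minimum difference.

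**Figure D1:**
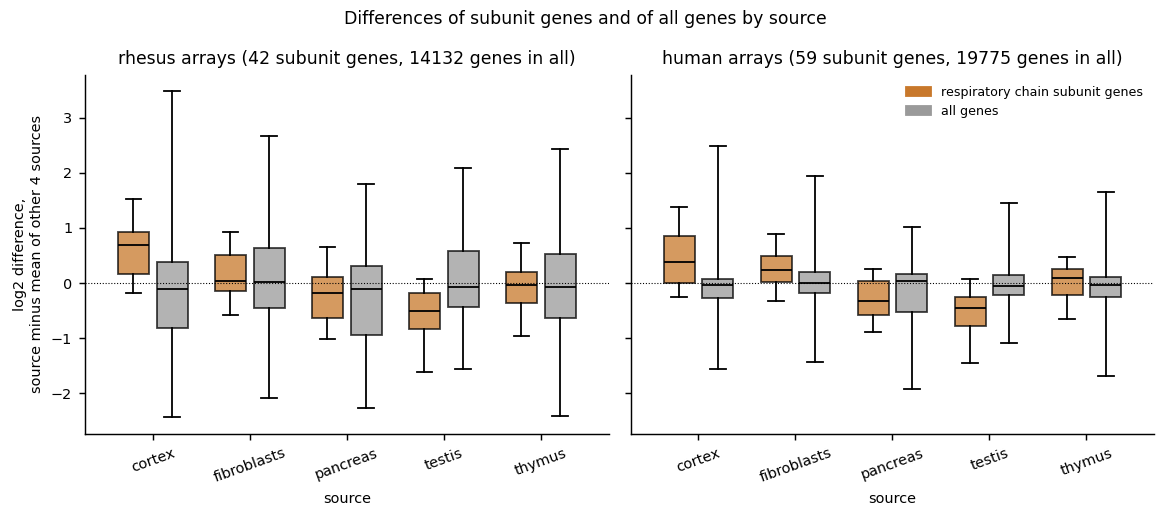
Log2 difference between a source and the other 4 sources' mean, for the subunit genes (orange, 42 on rhesus and 59 on human arrays) and for all genes (grey), with boxes from the 25th to the 75th percentile, a line at the median and whiskers at the 5th and 95th percentiles. The orange median lies at 0.69 and 0.39 in cortex and at -0.50 and -0.44 in testis, and the grey medians lie within 0.12 of 0.

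Complex I was the largest group, with 24 genes on rhesus and 32 on human arrays. In cortex its median difference was 0.67 on rhesus and 0.47 on human arrays. There 5 of 24 and 7 of 32 genes were called higher, against 16.6% and 11.0% of all genes, and none lower. In testis the median was -0.46 and -0.43. There 2 of 24 and 4 of 32 were called lower, against 11.2% and 5.63% of all genes, and none higher. NDUFS1, the large iron-sulfur subunit of the arm that oxidises NADH, gave 12.02 and 12.02 in cortex on the rhesus arrays, against 10.46 and 10.50 in fibroblasts, 10.23 and 10.30 in pancreas, 10.63 and 10.68 in testis and 10.50 and 10.54 in thymus. Its human probe set gave 11.68 and 11.81 in cortex, against 10.43 and 10.41 in fibroblasts, 9.71 and 9.93 in pancreas, 10.28 and 10.48 in testis and 10.31 and 10.23 in thymus. Cortex lay above every array of the other 4 sources on both types. The difference was 1.54 (SE 0.03, adjusted p = 8.7e-08) on rhesus and 1.52 (SE 0.08, adjusted p = 2.0e-05) on human arrays. With the mean of its 5 human probe sets it was 0.26, and the brightest of those without probes shared between transcripts gave -0.15 at a level of 3.43 to 3.97.

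The flavin-binding subunit NDUFV1, where NADH delivers its electrons, had 9.46 and 9.37 in cortex on the rhesus arrays, against 8.69 and 8.57 in fibroblasts, 8.17 and 7.86 in pancreas, 8.30 and 8.34 in testis and 7.69 and 7.55 in thymus. It was higher in cortex by 1.27 (SE 0.09, adjusted p = 3.0e-05). On the human arrays the difference was 0.98 (SE 0.04, adjusted p = 8.5e-06), just short of the minimum, and the groups did not overlap on either type. Other subunits were named after their values were seen. NDUFA8, an accessory subunit on the side of the intermembrane space, was called higher in cortex on both types, by 1.06 and 1.28, with means of 11.43 against 9.87 to 10.82 on rhesus and 8.34 against 6.71 to 7.65 on human arrays. NDUFA12, an accessory subunit of the NADH-oxidising arm, averaged 11.92 in cortex against 10.13 to 11.01 elsewhere on the rhesus arrays, a difference of 1.22. In pancreas NDUFA12 was the lowest at 10.13, a difference of -1.03, and the human arrays gave 0.88 in cortex and -0.90 in pancreas. NDUFS7, which carries the iron-sulfur cluster next to the quinone site, was called higher in cortex (1.02) and lower in testis (-1.14) on the rhesus arrays, where its brightest probe set averaged 9.63 and 7.91 in those tissues.

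NDUFV2, an iron-sulfur partner of NDUFV1, had its highest mean in fibroblasts on both types. It was 11.27 in fibroblasts against 10.22 to 10.53 on the rhesus arrays, a difference of 0.93, and 10.67 against 9.47 to 9.82 on the human arrays, a difference of 1.03 that was called. After quantile normalization no subunit gene was called in fibroblasts on the human arrays, so this call was lost. NDUFA11, an accessory subunit of the membrane arm read on the human arrays alone, gave 10.21 and 10.22 in fibroblasts and 8.24 and 8.42 in testis, against 9.63 and 9.57 in cortex, 8.72 and 9.04 in pancreas and 9.56 and 9.62 in thymus. It was higher in fibroblasts by 1.11 (SE 0.09, adjusted p = 1.9e-04) and lower in testis, at -1.24 (SE 0.09, adjusted p = 1.6e-04). Its 3 probe sets did not share that pattern in full, since the only one without a suffix for probes shared between transcripts lay between 3.78 and 4.31 and differed by -0.09 in fibroblasts and -0.17 in testis. Quantile normalization gave 0.79 in fibroblasts, and the mean of the 3 probe sets 0.65 in fibroblasts and -0.99 in testis, all under the minimum.

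NDUFV3, a small accessory subunit of the NADH-oxidising arm, went different ways on the array types. On the rhesus arrays it was at 5.75 and 5.67 in thymus, against 3.22 and 3.47 in cortex, 3.27 and 3.41 in fibroblasts, 4.45 and 4.79 in pancreas and 3.33 and 3.55 in testis, which is near the floor in the dimmest sources. The thymus difference was 2.03 (SE 0.11, adjusted p = 1.2e-05). On the human arrays it was at 7.99 and 7.67 in pancreas and 4.75 and 4.84 in testis, against 6.75 and 6.76 in cortex, 6.96 and 7.01 in fibroblasts and 5.996 and 5.84 in thymus. There the pancreas difference was 1.72 (SE 0.09, adjusted p = 2.5e-05), the testis difference -2.08 (SE 0.09, adjusted p = 1.7e-05) and the thymus difference -0.68. Subtraction of the spiked controls put the pancreas difference at 0.60, and leaving out probe sets shared between transcripts put the testis difference at -0.60, neither of them called. Pancreas was above 0 on both types, with 0.66 on the rhesus arrays, while thymus had opposite signs.

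Complex II also works in the citric acid cycle. Of its 3 genes on each type, only SDHA, the flavoprotein that oxidises succinate, was called, and only in pancreas on the human arrays. Of all genes, 15.7% were called lower in pancreas there, and 3 genes are too few to compare with other complexes. SDHA was at 7.18 and 7.23 in pancreas on those arrays, against 8.47 and 7.97 in cortex, 8.37 and 8.39 in fibroblasts, 8.61 and 8.58 in testis and 8.23 and 8.18 in thymus. All arrays of the other sources lay above those of pancreas, and the difference was -1.15 (SE 0.12, adjusted p = 4.8e-04). After quantile normalization it was -0.32, under the minimum, which ended the call. The rhesus arrays gave -0.95 in pancreas (SE 0.04, adjusted p = 5.1e-06), also under the minimum. In testis, where most subunit genes were at their lowest, SDHA was at its highest on both types, with differences of 0.67 and 0.60. SDHB, the iron-sulfur subunit read on the rhesus arrays alone, ran the other way, with 0.70 in pancreas and -0.84 in testis, neither of them called.

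Complex III held the widest range of all subunit genes. UQCRB, a small subunit next to the ubiquinone site, was at 11.75 and 11.69 in cortex on the rhesus arrays, against 7.93 and 7.71 in fibroblasts, 5.35 and 5.47 in pancreas, 8.53 and 8.60 in testis and 6.85 and 6.64 in thymus. Its differences there were 4.59 in cortex (SE 0.08, adjusted p = 4.3e-08), -3.31 in pancreas (SE 0.08, adjusted p = 3.6e-07) and -1.63 in thymus (SE 0.08, adjusted p = 5.8e-06), which became -0.73 with the mean of its probe sets. The human arrays did not show this, since UQCRB there was at 9.90 and 9.95 in cortex, against 10.40 and 10.21 in fibroblasts, 10.03 and 9.99 in pancreas, 9.34 and 9.38 in testis and 10.02 and 9.99 in thymus. The human cortex difference was 0.00 (SE 0.05), and the human pancreas difference 0.11 (SE 0.05). Because both types read aliquots of the same RNA, the probe sets of this gene are taken up again after the isoforms.

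UQCRC1, a core protein of complex III, was the subunit gene called higher in fibroblasts on both types. It had 11.44 and 11.58 in fibroblasts on the rhesus arrays, against 11.15 and 11.15 in cortex, 9.94 and 10.04 in pancreas, 10.16 and 10.12 in testis and 10.09 and 10.09 in thymus. The human values were 10.22 and 10.41 in fibroblasts, against 9.86 and 9.73 in cortex, 8.82 and 9.19 in pancreas, 9.13 and 9.04 in testis and 9.11 and 8.90 in thymus. Fibroblasts came first and cortex second on both types, with no overlap between them, and the differences in fibroblasts were 1.17 (SE 0.05, adjusted p = 2.4e-06) and 1.09 (SE 0.11, adjusted p = 6.0e-04). After quantile normalization these were 0.93 and 0.77, and the mean of the rhesus probe sets gave 0.86, all under the minimum. UQCR11, the smallest subunit, was at 8.40 and 8.34 in testis on the rhesus arrays against 9.62 to 10.36 on the arrays of the other sources, a difference of -1.63 (SE 0.03, adjusted p = 1.8e-07), or -0.91 with the mean of its probe sets. On the human arrays its testis level of 2.77 and 2.35 was under the floor, and the other sources were close to it at 3.30 to 3.54. UQCRQ, a further small subunit named after its values were seen, averaged 10.20 in testis against 11.27 to 12.11 on the rhesus arrays (difference -1.62) and 6.76 against 7.64 to 7.94 on the human arrays (-0.99). UQCRC2, the other core protein and also named after its values were seen, was called lower in pancreas on the rhesus arrays, at 8.52 against 9.65 to 10.48, and differed by -0.73 in pancreas on the human arrays. The Rieske iron-sulfur protein UQCRFS1 was read on the rhesus arrays alone and was not called in any source, with differences from -0.51 in testis to 0.68 in cortex.

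**Figure D2:**
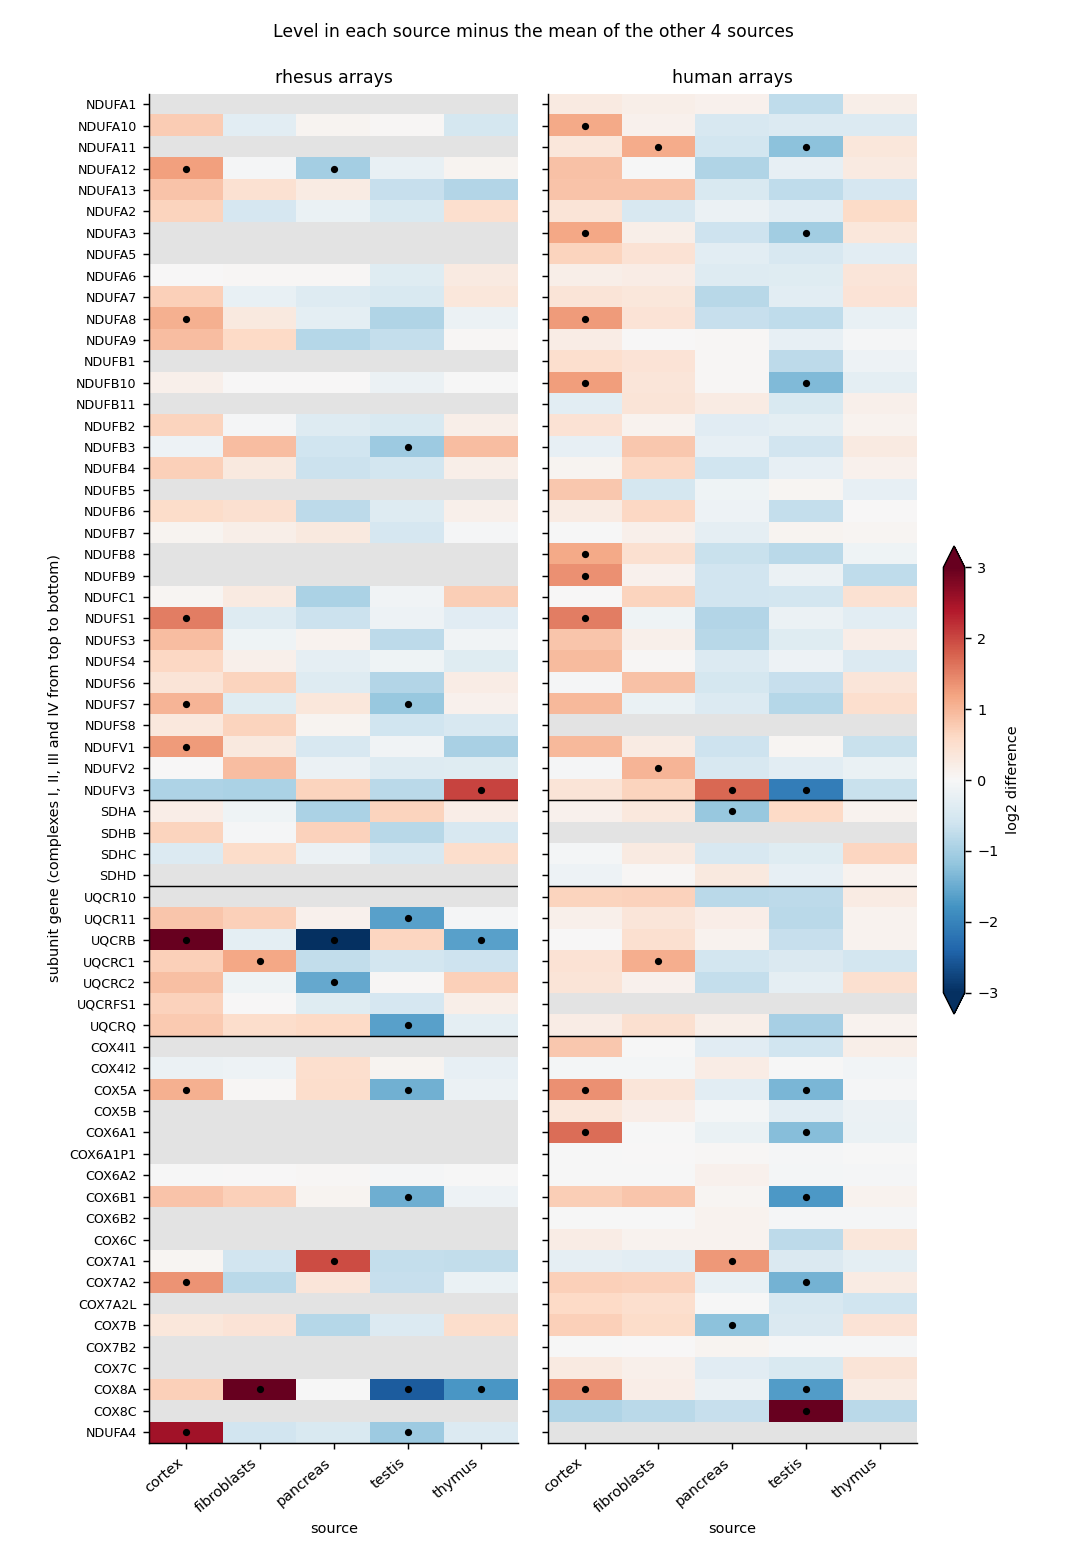
Log2 difference between a source and the other 4 sources' mean for 63 subunit genes (rows, grouped by complex) on rhesus arrays (left) and human arrays (right), with red for higher and blue for lower levels in the source, colours limited at 3, grey where the array type did not read the gene and a black dot where the gene was called. The cortex columns hold no called blue cell and the testis columns a single called red cell, COX8C on the human arrays.

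In complex IV, read from 9 genes on rhesus and 18 on human arrays, 3 and 3 genes were called higher in cortex and none lower. In testis 4 and 5 were lower, with 0 and 1 higher. Of all genes, 16.6% and 11.0% were called higher in cortex and 11.2% and 5.63% lower in testis. COX5A, a subunit on the matrix side, was at 11.59 and 11.50 in cortex and 9.51 and 9.57 in testis on the rhesus arrays, against 10.71 and 10.72 in fibroblasts, 11.10 and 11.14 in pancreas and 10.59 and 10.50 in thymus. Its human levels were 11.43 and 11.48 in cortex and 9.32 and 9.22 in testis, against 10.75 and 10.56 in fibroblasts, 10.24 and 9.998 in pancreas and 10.33 and 10.35 in thymus. It was the only subunit gene called in the same 2 sources on both types, being higher in cortex by 1.07 (SE 0.04, adjusted p = 1.3e-06) and 1.36 (SE 0.08, adjusted p = 3.2e-05) and lower in testis, at -1.44 and -1.37. Quantile normalization put the rhesus cortex difference at 0.95, under the minimum, and the mean of the 2 human probe sets gave 0.68 in cortex and -0.75 in testis. The other human probe set was under the floor in all sources, with -0.0069 in cortex and -0.13 in testis. COX6B1, which faces the intermembrane space where cytochrome c docks, was called lower in testis on both types. Its testis arrays read 10.81 and 10.81 against 11.85 to 12.67 on the other rhesus arrays, and 8.39 and 8.59 against 9.84 to 10.61 on the other human arrays. The differences were -1.47 (SE 0.03, adjusted p = 1.8e-07) and -1.71 (SE 0.08, adjusted p = 2.2e-05). COX7B, a small membrane subunit, was lowest in pancreas instead, with 10.61 and 10.87 in pancreas on the human arrays against 11.35 to 12.30, a difference of -1.22 (SE 0.07, adjusted p = 3.2e-05), and -0.86 on the rhesus arrays. The human COX7B call was lost after quantile normalization, at -0.65, and with the mean of its probe sets, at -0.45. COX4I1 and COX5B were read on the human arrays alone and not called, with differences in cortex of 0.80 and 0.35.

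Isoform genes of complex IV included some that were highest in a source other than cortex. COX7A1 is the isoform known from heart and skeletal muscle, and from brown fat in mice, and COX7A2 its counterpart in other tissues. COX7A1 was at 10.55 and 10.46 in pancreas on the rhesus arrays, against 8.88 and 9.06 in cortex, 8.43 and 8.52 in fibroblasts, 8.46 and 8.27 in testis and 8.38 and 8.29 in thymus. Human arrays put it at 6.23 and 5.23 in pancreas, against 4.48 and 4.47 in cortex, 4.45 and 4.44 in fibroblasts, 4.44 and 4.24 in testis and 4.36 and 4.56 in thymus. All 4 pancreas arrays lay above those of the other sources of their type, although the human pair lay 1.00 apart. The difference was 1.97 (SE 0.07, adjusted p = 2.2e-06) and 1.30 (SE 0.24, adjusted p = 4.7e-03). It was 0.80 on the human arrays without pancreas replicate 3, the brighter array, and 0.88 and 0.19 on rhesus and human arrays with the spiked controls subtracted.

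Markers of other cell types were read in pancreas beside COX7A1. Of the fat cell markers, 2 of 5 on rhesus and 2 of 7 on human arrays were called higher in pancreas. Their summed level was 12.71 against 7.93 to 11.04 on rhesus and 9.24 against 5.19 to 7.57 on human arrays. FABP4 alone was at 12.65 and 9.10 in pancreas, so these sums mostly read 1 gene and not the whole list. Thymus, where COX7A1 was not called, had 2 of 5 and 1 of 7 of these markers called higher, FABP4 on both types. The all-gene shares called higher were 9.81% and 5.01% in pancreas and 16.7% and 9.65% in thymus. FABP4, a fatty acid carrier of fat and endothelial cells, was at 12.65 and 9.10 in pancreas on the 2 types, and CIDEA, a lipid droplet protein of fat cells, at 4.73 and 4.64 against 2.25 to 2.36 elsewhere. ADIPOQ, a fat cell hormone, was at 7.31 in pancreas against 7.52 to 8.83 on the rhesus arrays and at 2.37 on the human arrays. UCP1, the defining protein of brown fat, was under the floor in pancreas at 2.70 and 2.37, and PLIN1, which coats lipid droplets, was at 2.23 on the human arrays. Of the striated muscle markers, 1 of 8 was called higher in pancreas on the rhesus arrays, the troponin gene TNNT3 at 4.43, and 0 of 10 on the human arrays, where TNNT3 was at 3.17 in pancreas against 3.12 to 3.16 elsewhere. Their part in the level of COX7A1 was not tested. Of the pericyte markers 0 of 4 on rhesus and 1 of 6 on human arrays was called higher in pancreas, RGS5 at 8.42, and their summed level was 6.45 against 5.94 to 8.33 and 8.61 against 6.41 to 9.25. Of the smooth muscle markers 0 of 5 and 0 of 8 were higher in pancreas and 2 and 3 lower, with a summed level of 7.88 against 6.43 to 13.20 and 9.07 against 8.45 to 13.56.

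COX7A2 was highest in cortex on the rhesus arrays, at 11.78 and 11.74 against 10.04 to 10.98 on the other arrays, a difference of 1.34 (SE 0.04, adjusted p = 4.1e-07). Cortex on the human arrays (10.45 and 10.45) and fibroblasts (10.55 and 10.32) overlapped, and COX7A2 was called only in testis, at 8.56 and 8.94 with a difference of -1.42 (SE 0.10, adjusted p = 1.8e-04). In fibroblasts the differences of its brightest probe sets had opposite signs, -0.81 on rhesus and 0.69 on human arrays, neither called. A dimmer rhesus probe set of COX7A2, above the floor in all sources, gave 0.52 in fibroblasts, the sign of the human arrays. It was called higher in cortex, at 1.48, and lower in testis and pancreas, at -1.05 in both. COX7A2L, a related protein that joins complexes III and IV, was read on the human arrays alone and was not called, with 0.60 in cortex and -0.60 in thymus.

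COX8A, the form of subunit VIII used in most tissues, was lower in testis on both types. On the rhesus arrays it was at 11.89 and 11.83 in fibroblasts, 7.10 and 6.94 in testis and 7.61 and 7.66 in thymus, against 9.53 and 9.65 in cortex and 9.04 and 8.98 in pancreas. It was at 7.40 and 8.25 in cortex and 5.31 and 5.41 in testis on the human arrays, against 6.88 and 6.86 in fibroblasts, 6.55 and 6.57 in pancreas and 7.09 and 6.72 in thymus. Testis was below every other array on both types, by -2.50 (SE 0.05, adjusted p = 2.7e-07) and -1.68 (SE 0.22, adjusted p = 2.1e-03) in the fits. The highest source differed, since the rhesus arrays called fibroblasts higher by 3.55 (SE 0.05, adjusted p = 4.9e-08), where the human difference was 0.21 (SE 0.22). The human arrays called cortex higher by 1.40 (SE 0.22, adjusted p = 3.8e-03), which became 0.97 without cortex replicate 4, the brighter array of that pair.

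COX8C is the form of subunit VIII known from human testis, and was read on the human arrays alone. It was at 5.87 and 6.24 in testis, against 2.72 and 2.82 in cortex, 2.84 and 2.87 in fibroblasts, 2.93 and 2.95 in pancreas and 2.85 and 2.83 in thymus. The arrays of the other 4 sources were all under the floor of 3.12. The fitted difference was 3.20 (SE 0.09, adjusted p = 3.3e-06), and the testis mean lay 2.93 above the floor, or at least 7.63-fold. Beside it, the germ cell genes DDX4 and ZPBP were at 7.05 and 7.89 in testis on these arrays against 2.34 to 2.95 in the other sources. Both are among the 4 of 16 listed germ cell genes called higher in testis there, and 6 of the 16 were above the floor. What part germ cells had in the level of COX8C was not tested.

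The other tissue isoforms had no source mean above the floor. COX4I2, known from lung, had source means from 2.40 to 3.00 on rhesus and 2.78 to 3.03 on human arrays. COX6A2, the heart and muscle form, lay at 1.57 to 1.61 and 2.24 to 2.39, and its counterpart COX6A1 on the human arrays was at 12.60 and 12.62 in cortex and 10.16 and 10.35 in testis, against 11.09 to 11.31 in the other sources. COX6A1 was higher in cortex by 1.67 (SE 0.05, adjusted p = 2.5e-06) and lower in testis, at -1.27 (SE 0.05, adjusted p = 1.7e-05), while the mean of its probe sets gave 0.84 and -0.65. COX6B2 and COX7B2, both known from human testis, were at 2.26 and 2.48 in testis, no higher than in the other sources. The pseudogene COX6A1P1, which the symbol rule also takes in, was under the floor in all sources. NDUFA4, first named as a subunit of complex I and now counted with complex IV, was read on the rhesus arrays alone. It was at 11.81 and 12.05 in cortex, against 9.46 and 9.45 in fibroblasts, 9.56 and 9.55 in pancreas, 9.03 and 9.07 in testis and 9.61 and 9.57 in thymus. Cortex was apart from all other arrays by 2.52 (SE 0.06, adjusted p = 1.8e-07), and testis was lower, at -1.09 (SE 0.06, adjusted p = 1.5e-05). Its paralogue NDUFA4L2, which the symbol rule leaves out, was at 3.86 and 3.09 in pancreas on the rhesus arrays and under the floor in the other sources at 2.30 to 2.40.

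**Figure D3:**
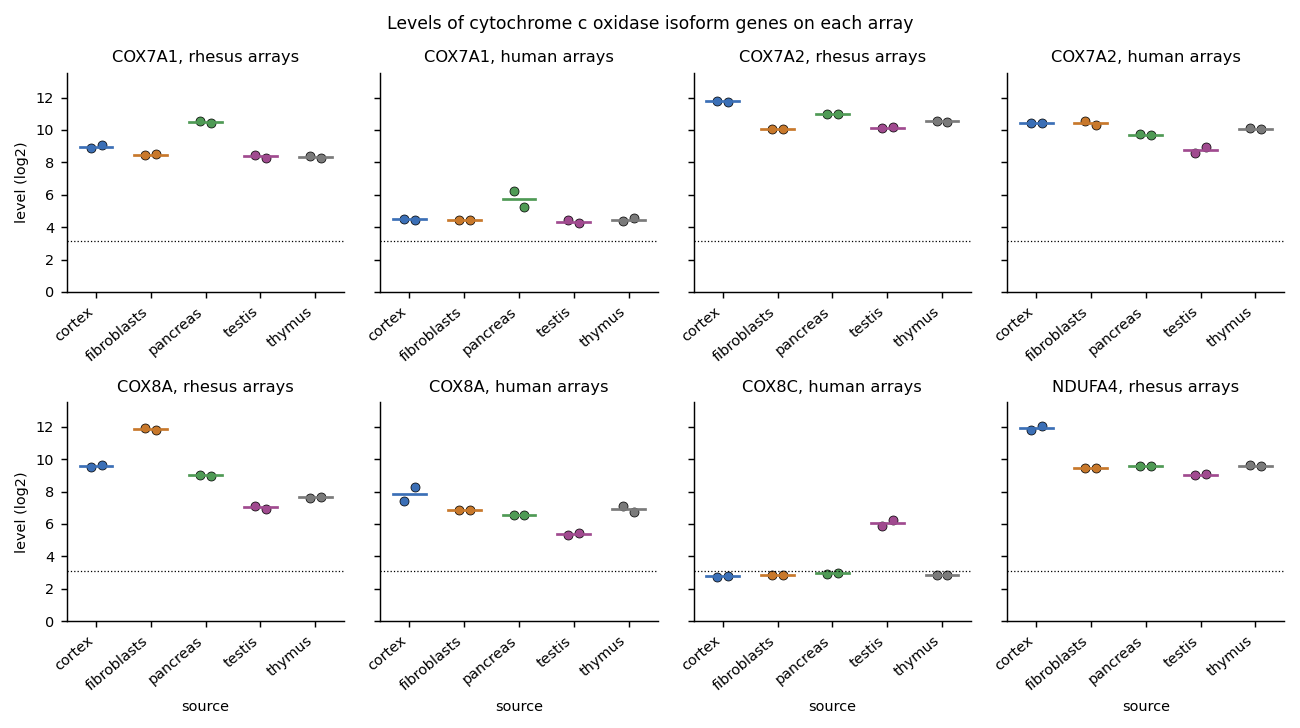
Level (log2) of 5 complex IV genes on each array, as points for the 2 arrays of a source and a bar for their mean, with a dotted line at the floor of 3.12 and the array type in each title. COX7A1 is highest in pancreas on both types, COX8C lies above the floor in testis alone, and COX8A is lowest in testis on both types while its highest source is fibroblasts on rhesus and cortex on human arrays.

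Probe sets of 1 gene did not always show 1 pattern. On the rhesus arrays 19 subunit genes had several probe sets and on the human arrays 31, which gave 28 and 54 dimmer ones beside the brightest. Of the dimmer ones, 2 and 29 were at the floor in all sources. A range over 3 between sources was seen in 9 of 28 (32.1%) on the rhesus arrays, against 26.5% of the dimmer probe sets of all genes, and in 1 of 54 (1.85%) on the human arrays against 9.41%. For UQCRB, 2 of the 3 dimmer rhesus probe sets were also highest in cortex, at 8.33 against 4.39 to 5.25 and at 7.23 against 2.80 to 3.30, and the third was even, at 5.24 in cortex against 5.36 to 5.89. Of the human UQCRB probe sets 2 dimmer ones were likewise highest in cortex, at 6.48 against 2.96 to 3.42 and at 5.87 against 4.23 to 4.44, and the third was even at 7.45 against 7.17 to 7.58. Both array types thus held UQCRB probe sets with and without a high level in cortex.

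COX5A had 2 dimmer rhesus probe sets that were detected in cortex alone, at 9.88 against 2.10 to 2.24 and at 9.51 against 2.13 to 2.27. Cortex lay 6.76 and 6.39 above the floor there, while the brightest probe set was at 11.55 in cortex against 9.54 to 11.12. The following probe sets were chosen after their values were seen. A dimmer NDUFS7 probe set on the rhesus arrays was lower in cortex, at 6.32 against 7.27 to 10.54 (difference -2.46), where the brightest was higher by 1.02, and this was the only subunit gene with probe sets called in opposite directions. A dimmer NDUFV2 probe set on the rhesus arrays was at 11.17 in thymus against 4.32 to 6.59, a difference of 5.72, where the brightest gave -0.36. Which transcripts these probe sets read was not tested.

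**Figure D4:**
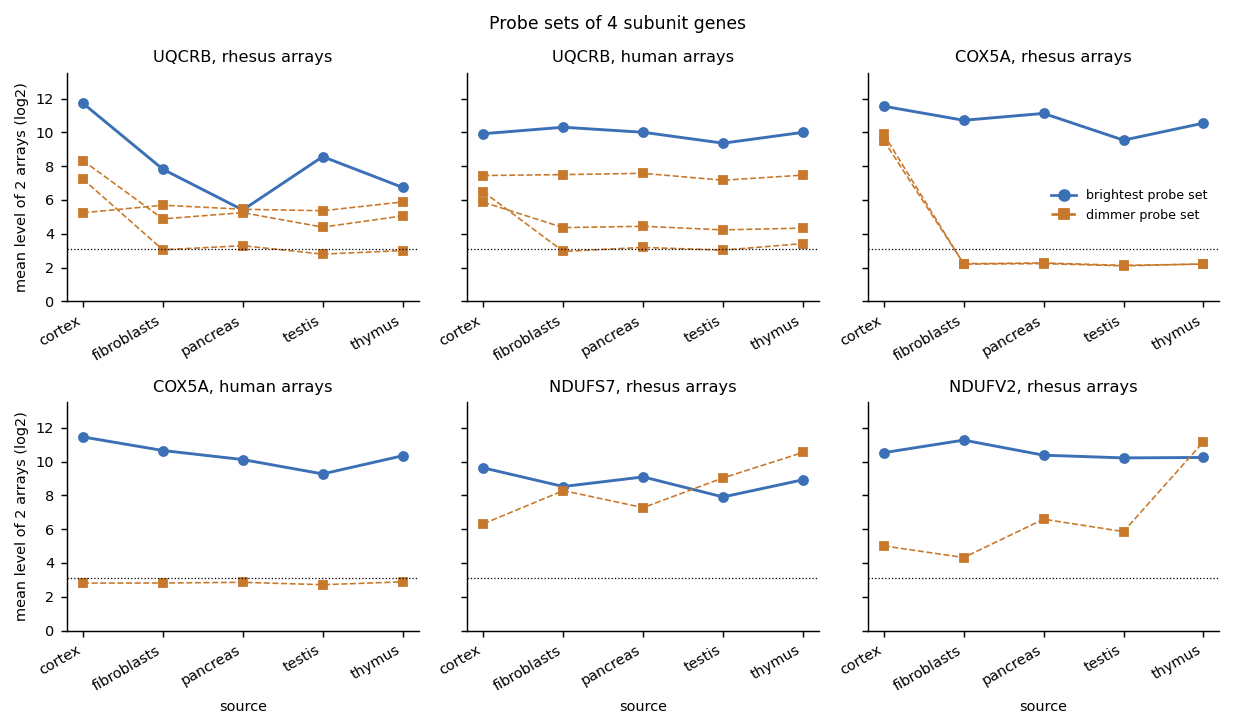
Mean level (log2) of the 2 arrays of each source for every probe set of 4 subunit genes, with the brightest probe set in blue, dimmer ones in dashed orange, lines that only join the points of a probe set and a dotted line at the floor. Cortex stands out in 3 of 4 rhesus and 2 of 4 human UQCRB probe sets and in the dimmer rhesus COX5A probe sets, and thymus in a dimmer rhesus NDUFV2 probe set.

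The 2 array types were set side by side for the 38 genes they share, with no test between them because the tables may have been normalised separately. The sign of the difference was the same for 33 of 38 genes in cortex and 32 in testis, and for 28 each in fibroblasts, pancreas and thymus. Calls in the same direction on both types were NDUFS1, NDUFA8 and COX5A in cortex, UQCRC1 in fibroblasts, COX7A1 in pancreas, and COX5A, COX6B1 and COX8A in testis. None was called in opposite directions. The highest source was the same for 22 of 38 genes and the lowest for 22 of 38. The points farthest from equal values were UQCRB in cortex (4.59 and 0.00 on rhesus and human arrays) and in pancreas (-3.31 and 0.11), COX8A in fibroblasts (3.55 and 0.21), and NDUFV3 in thymus (2.03 and -0.68).

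**Figure D5:**
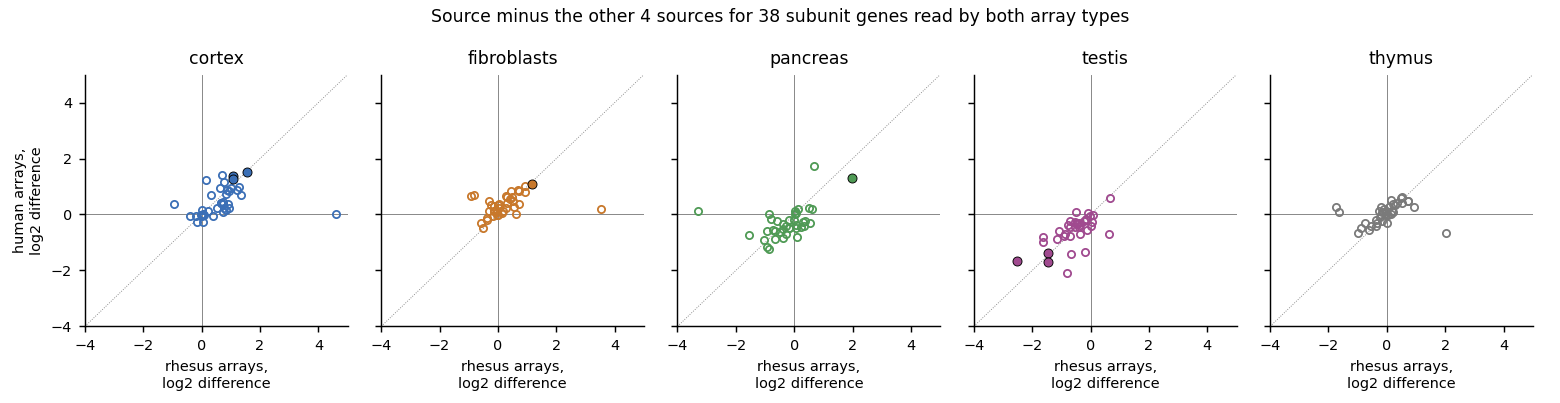
Log2 difference between a source and the other 4 sources' mean for 38 subunit genes, on rhesus arrays (horizontal axis) and human arrays (vertical axis), with filled points for genes called on both types and a dotted line at equal values. In cortex 33 of 38 points lie on the same side of 0 on both axes, and the point far to the right is UQCRB at 4.59 and 0.00.

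Lists of neighbouring genes were read the same way. Of the ATP synthase genes, whose enzyme uses the proton gradient, 15 were read on rhesus and 18 on human arrays. In cortex 2 were called higher and 0 lower on each type, and in testis 0 were higher and 5 and 1 lower, with medians of 0.36 and 0.35 in cortex and -0.62 and -0.67 in testis. In pancreas 0 were higher and 2 and 4 lower, with medians of -0.36 and -0.43. The cortex counts are 13.3% and 11.1% of the list against 16.6% and 11.0% of all genes, and the testis counts 33.3% and 5.56% against 11.2% and 5.63%. The pancreas counts are 13.3% and 22.2% against 23.8% and 15.7%. Named after their values were seen, 2 genes are given. ATP5IF1, an inhibitor of the enzyme, was at 10.23 and 10.47 in cortex on rhesus and human arrays, against 8.07 to 9.68 and 8.80 to 9.95. ATP5MG, a subunit of the membrane part, was called higher in thymus on both types, by 1.14 and 1.14.

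Assembly factors of the complexes were read from 35 genes on rhesus and 46 on human arrays. Fibroblasts had 7 called higher on each type, with 0 and 1 lower, and a median of 0.41 and 0.05. The genes higher there are 20% and 15.2% of the list, near the 18.0% and 11.3% of all genes. Cortex had 1 higher and 8 lower on rhesus and 0 and 2 on human arrays, with medians of 0.00 and -0.03. Lower calls in cortex are 22.9% and 4.35% of the list against 21.1% and 9.99% of all genes. The next 4 genes were named after their values were seen. ACAD9 and TIMMDC1, both complex I assembly factors, were higher in fibroblasts by 1.34 and 1.39 on rhesus and by 1.43 and 1.15 on human arrays. BCS1L, which inserts the Rieske protein into complex III, was higher there by 1.12 and 1.24, and COX20, a chaperone of complex IV, by 1.81 and 1.61.

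Among 12 and 17 carriers and regulators of mitochondrial biogenesis, PPARGC1A, a transcriptional coactivator that raises the genes of the chain in many tissues, was highest in cortex. It was at 7.61 in cortex against 3.31 to 4.85 on the rhesus arrays, and at 7.67 against 3.41 to 4.74 on the human arrays, with differences of 3.59 and 3.39. Its relative PPARGC1B was at 5.44 in cortex against 3.34 to 3.84 and at 5.38 against 2.71 to 3.85. GABPB1, a subunit of the transcription factor also called NRF2 (all 3 named after their values were seen), was lowest in pancreas and highest in thymus, with thymus differences of 2.33 and 2.30, and was called lower in cortex, at -1.21 and -1.03. In the list as a whole, cortex had 3 called higher and 4 lower on rhesus and 3 and 3 on human arrays, which is 25% and 33.3% of 12 genes and 17.6% and 17.6% of 17, against 16.6% and 21.1%, and 11.0% and 9.99%, of all genes. Beside GABPB1, the genes lower in cortex were PPRC1 and GABPA on both types and TFAM on the rhesus arrays. In pancreas 0 were higher and 6 lower on rhesus and 1 and 5 on human arrays. The lower calls there are 50% and 29.4% of the list, against 23.8% and 15.7% of all genes. The higher calls are 0% and 5.88%, against 9.81% and 5.01%. Of the genes that mitochondrial DNA encodes for proteins, 7 had a probe set on the human arrays. None was called in any source, 1 or 2 were above the floor, and their summed level was 5.56 to 5.75. Whether these probe sets detect the transcripts was not tested, so the lack of calls does not show even levels between sources.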

How the data were processed

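For each array type the authors deposited a table of log2 values, a value per probe set and array, and the submitters' processing notes name RMA. The RMA version and the set of arrays it was run on are not stated in the labels or methods. Values were used as deposited, and the 2 tables were analysed separately. The limma package (version 3.58.1, lmFit and eBayes, in R 4.3.3) was used to compare sources, with 1 mean per source over the 10 arrays of a type and Benjamini-Hochberg adjustment over all 52766 rhesus or 54613 human probe sets other than controls. The spread within pairs was pooled over the 5 sources, and the number of arrays, 2 per source and type, limits the precision. The fit was tested on simulated data.

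Gene symbols were those of the arrays' annotation, in which 24956 rhesus and 41091 human probe sets had 1 symbol, 361 and 1801 several and 27449 and 11721 none. All 70 rhesus probe sets of subunit genes matched a rhesus gene table, which changed 0 symbols. Probe sets with several symbols were left out, among them all those of COX4I1, COX6A1 and NDUFB8 on the rhesus and of NDUFS5, NDUFS8 and UQCRH on the human arrays. The text names the isoform and core genes of 2 lists, the 2 genes with the largest called difference per source and array type, and genes stated as named after their values were seen. The genes and lists were chosen with earlier results of these data known. As alternatives, arrays were quantile normalized, centred on their median or on the spiked controls, dim probe sets were filtered out, the minimum difference or the variance moderation was dropped, the replicate number was a block, every array was left out once, a gene was read as the mean of its probe sets, and probe sets shared between transcripts were dropped. No sequences of probes or transcripts were used here.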

Additional observations from a re-analysis of the deposited data

How the results depend on the processing

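The calls followed here, 36 in all, are those of subunit genes named from the 2 lists or for the largest differences. Calls of genes named after their values were seen are not among them. Dropping the minimum difference only loosens the rule, so it could lose none. Dropping dim probe sets leaves the log2 differences as they are, so only the adjusted p could move. All 36 stayed called in the same direction under that filter, subtraction of the array median, dropping the variance moderation, and the replicate block. They fell short of the threshold in 2 of 360 cases with an array left out, both given beside COX7A1 and COX8A, in 6 of 36 under quantile normalization, in 3 with spiked controls subtracted, in 11 when a gene was read as the mean of its probe sets and in 3 of 31 without probe sets shared between transcripts. The last setting also turned 3 human values around, NDUFS1 in cortex to -0.15, COX5A in cortex to -0.0069 and NDUFA11 in fibroblasts to -0.092. By its construction it reads a dimmer probe set, for COX5A 1 under the floor.

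The number of subunit genes called moved as follows, and the cause was not tested unless the setting itself gives it. Without the minimum difference, 33 (cortex), 32 (fibroblasts), 36 (pancreas), 35 (testis) and 35 (thymus) were called on rhesus arrays, against which human arrays had 34, 29, 39, 43 and 28. Subtracting the array median gave 4 in fibroblasts and 9 in pancreas, of which 8 were lower, on the rhesus arrays. Subtracting the spiked controls moved the median of all genes by -1.09 and -1.11 in pancreas and by 0.78 and 0.70 in fibroblasts on the 2 types, and called 15 and 18 in cortex and 18 and 27 in fibroblasts, all higher, and 30 and 50 in pancreas, all lower. Such a constant cannot move the members relative to all genes, where the pancreas median was -0.08 and -0.35, and 0.28 and 0.28 after quantile normalization. Quantile normalization called 0 in fibroblasts on the human arrays. Reading the mean of a gene's probe sets called 7 in pancreas and 7 in thymus on rhesus arrays, 5 in cortex and 6 in testis on human arrays, and leaving out shared probe sets called 5 in testis on the human arrays. With each array left out in turn, fibroblasts ranged from 2 to 4 on the rhesus arrays, with 4 without fibroblast replicate 2. The replicate block called 9 in cortex and 8 in testis for rhesus arrays, 10 and 10 for human arrays, and changed no call. Same-numbered arrays of different sources had correlations of their deviations from -0.03 to 0.02, so the numbers do not pair the arrays.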

Other observations

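Further dimmer probe sets on the rhesus arrays, chosen after their values were seen, had another pattern over the sources than the brightest probe set of the same gene. For NDUFA6, an accessory subunit of complex I, the brightest probe set lay between 11.17 and 11.67 in all sources. A dimmer NDUFA6 probe set was at 9.002 in fibroblasts and 8.15 in cortex against 3.11 in thymus, and another was at 8.36 in cortex and 7.94 in fibroblasts against 3.88 in thymus. NDUFB4, also an accessory subunit of complex I, had a dimmer probe set at 7.71 in thymus and 6.55 in testis against 3.75 to 4.18 in the other 3 sources, while its brightest was at 11.15 and 10.58 in thymus and testis against 10.49 to 11.59. A dimmer UQCRC1 probe set was at 10.11 in thymus against 7.31 to 8.99 elsewhere, a thymus difference of 1.76 where the brightest gave -0.61. For SDHC, a membrane anchor of complex II, a dimmer human probe set was at 6.04 in cortex against 3.35 to 4.36, and a dimmer rhesus probe set at 3.56 in cortex against 1.88 to 1.96, while the brightest ones gave -0.06 and -0.41 in cortex.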
